A study of Mus musculus with 6 samples.

Results

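The genes described are 49 interferon-stimulated genes, chosen by gene name. Probes carrying 48 of the 49 symbols were on the array, 77 probes in all among 56605, and *Ifitm2* had none under that symbol. A probe was tested where all 3 arrays of one group or the other read it well above background, which left 62 probes of 45 of these genes, among 22998 probes of 13747 named genes in all.

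The hearts came from male C57BL/6J mice labelled as having an inducible deletion of *Clk4*, which encodes a kinase that phosphorylates splicing factors and nexilin (NEXN), an actin-binding protein of the Z-disc. All mice of both groups were labelled *Clk4*-cKO. In this design *Clk4* exons were flanked by loxP sites, and a MerCreMer recombinase driven by the cardiomyocyte promoter α-MHC was activated with tamoxifen in young adults, so the deletion is meant for cardiomyocytes alone. Before tamoxifen each mouse received by vein an AAV9 vector with a CMV promoter and a linked GFP. In 3 hearts the vector carried wild-type NEXN (NEXN-WT, the control), and in 3 it carried NEXN-S437E, in which glutamate stands in for a phosphorylated serine. No heart on these arrays was labelled as lacking the *Clk4* deletion or the vector, so no untreated level is given. The comparison asks how gene expression in myocardium labelled as *Clk4*-deficient differs when the phosphorylation-mimic rather than the wild-type protein is supplied.

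Interferons are secreted proteins that bind receptors on neighbouring cells and, through JAK kinases, activate transcription factors. Type I interferons act through a complex that contains STAT2 and IRF9 on the interferon-stimulated response element (ISRE), whereas interferon gamma, made mainly by T cells and NK cells, acts on the gamma-activated sequence (GAS). The induced genes encode antiviral proteins, guanosine triphosphatases (GTPases) that attack intracellular pathogens, and the machinery that presents antigen. In the heart resident macrophages, endothelial cells, fibroblasts and the cardiomyocytes themselves can express them.

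The sequences through which interferons act are shown first for the genes to which the results below refer. RefSeq promoter windows on GRCm38.p6, which run from 250 bases before to 50 bases after a gene's start, were given for 39 of the 49 genes. The ISRE core was searched as GAAANNGAAA and GAS as TTCNNNGAA, both strands, and matches of the 2 motifs may overlap. The ISRE core was present in the windows of 19 of the 39 genes (48.7%), against 3.99% of the 27025 genes with a window, and GAS in those of 15 (38.5%), against 9.55%. Capitals mark every match in the stretches below, which all lie upstream of the annotated start and read 5′ to 3′ on the gene's own strand. The first 4 belong to genes with a low unadjusted p, and the other 4 to relatives or classical targets whose groups overlapped or nearly did.
*Stat2*, chr10:128270261-128270300, plus strand: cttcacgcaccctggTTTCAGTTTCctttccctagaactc
*Irf8*, chr8:120736172-120736228, plus strand: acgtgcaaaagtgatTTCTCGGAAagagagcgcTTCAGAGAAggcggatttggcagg
*Oas1a*, chr5:120907526-120907560, minus strand: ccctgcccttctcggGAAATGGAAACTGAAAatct
*Igtp*, chr11:58199496-58199546, plus strand: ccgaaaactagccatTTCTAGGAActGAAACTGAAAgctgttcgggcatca
*Irgm2*, chr11:58214887-58214937, plus strand: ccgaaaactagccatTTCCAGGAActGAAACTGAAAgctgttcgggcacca
*Gbp2*, chr3:142620589-142620628, plus strand: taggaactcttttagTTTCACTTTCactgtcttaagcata
*Isg15*, chr4:156200860-156200911, minus strand: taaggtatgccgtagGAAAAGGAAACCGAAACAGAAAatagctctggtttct
*Ifit1*, chr19:34640770-34640828, plus strand: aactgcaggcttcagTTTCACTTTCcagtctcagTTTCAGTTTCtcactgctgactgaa
In *Stat2*, *Gbp2* and *Ifit1* the core lies on the opposite strand and reads from the right. *Irf8* carried 2 GAS matches and no ISRE core in its windows. *Igtp* and *Irgm2*, which lie side by side on chromosome 11, were identical at 49 of the 51 positions printed. A match is a string of letters and not a measured binding site.

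The 6 arrays shared 1 slide and 1 scan. NEXN-S437E replicate 1 sat with the controls in slide row 1 and the other 2 NEXN-S437E arrays in row 2. Each array read 41.9% to 47.8% of its spots well above background, and no spot was saturated. The 75th percentile of the signal, to which the values below are relative, was 273, 175 and 154 in NEXN-WT replicates 1, 2 and 3. It was 110, 160 and 142 in the NEXN-S437E replicates, so NEXN-WT replicate 1 was the brightest array. What part this brightness had in its values was not tested. Readings of *Clk4* and *Esr1* bear on the labels. The *Clk4* probe A_52_P445387 read 1.48, 1.12 and 1.30 with NEXN-WT and 1.49, 1.18 and 1.63 with NEXN-S437E, so the groups overlapped. The other 2 *Clk4* probes were dim and not tested. A_52_P128262, above background on 1 NEXN-WT and 2 NEXN-S437E arrays, read −3.17, −3.73 and −3.43 with NEXN-WT and −3.04, −2.85 and −3.08 with NEXN-S437E, higher in every NEXN-S437E heart. A_52_P368396, above background on 1 array of each group, had means of −3.88 and −3.28 with overlap. Whether these probes lie within the deleted exons was not tested. The *Esr1* probe A_55_P2030883 (chromosome 10, 5489352 to 5489411 on mm9) read 3.13, 5.82 and 5.21 with NEXN-WT and −5.30, −5.63 and −5.41 with NEXN-S437E, where no array read it above background. Of the other 2 tested *Esr1* probes, A_52_P237077 was above background on all 3 NEXN-WT arrays and on no NEXN-S437E array and overlapped by 0.010, and A_65_P17231 gave −0.58 with overlap. MerCreMer contains part of the estrogen receptor, which *Esr1* encodes, and both groups are labelled as carrying it. Whether the NEXN-S437E hearts carried the transgene cannot be told from these readings, and any such difference cannot be told apart from the vector in what follows.

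Most interferon-stimulated genes read slightly lower in the NEXN-S437E hearts, and few stood clear of the spread between hearts. The log2 fold change (NEXN-S437E minus NEXN-WT, on log2 signal relative to each array's own 75th percentile) was below 0 for 42 of the 45 tested genes, against 40.8% of all 13747 genes. Its median was −0.32 over the 45 and 0.073 over all genes. *Tap1*, a transporter of peptides for antigen presentation, and *Mx1*, an antiviral GTPase, had a fitted difference of 2-fold or more, both lower, with an unadjusted p under 0.05 from limma, that is 2 of 45, against 2.15% of all genes. *Mx1* was above background on no NEXN-S437E array, and its bound, given below, is under 2-fold. By p the order was *Tap1*, the deubiquitinase gene *Usp18*, *Mx1* and the transcription factor gene *Stat2*. No gene passed the adjusted threshold, against 0.204% of all genes, with a smallest limma adjusted p of 0.0534 for *Tap1*. None passed it by the methods' t-test either, whereas 3 (*Gbp4*, *Igtp* and *Tap1*) did with array weights. With those weights the median of the 45 fold changes was −0.19, and 37 were below 0.

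An unadjusted p under 0.05 from limma was reached by 11 of the 45 genes, all of them lower (24.4%), against 7.91% of all genes that were lower and 10.1% that were higher. They were *Tap1*, *Usp18*, *Mx1*, *Stat2*, *Oasl1*, *Gbp6*, *Oas1a*, *Rsad2*, *Gbp4*, *Igtp* and *Irf8*. Of these *Mx1* passed the filter only through the NEXN-WT arrays, where it was higher, so its call is no separate evidence of a difference. In 16 of the 45 genes every NEXN-S437E heart was below every NEXN-WT heart (35.6%), against 11.2% of all genes. These 16 were the same 11 with *Irf9*, *Cmpk2*, *Oasl2*, *Iigp1* and *Irgm2*, and in *Igtp*, *Irgm2* and *Cmpk2* the groups were less than 0.01 apart. For the 45 genes the median SD between hearts of a group was 0.23 with NEXN-WT and 0.17 with NEXN-S437E, and the median standard error of a fold change was 0.17, so that differences of the size seen in most of these genes lay near the limit of 3 arrays a group. The 11 became 17 with the authors' normalized values and 5 without NEXN-S437E replicate 2. With slide row as a block 7 of the 11 lost that call. Among them *Gbp4* fell to −0.19 and *Igtp* to −0.22, and *Stat2* and *Irf8* moved less, to −0.39 and −0.34. *Rsad2* (−0.40), *Gbp6* (−0.51) and *Oas1a* (−0.56) lost the call although their differences were no smaller than in the main fit.

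**Figure D1:**
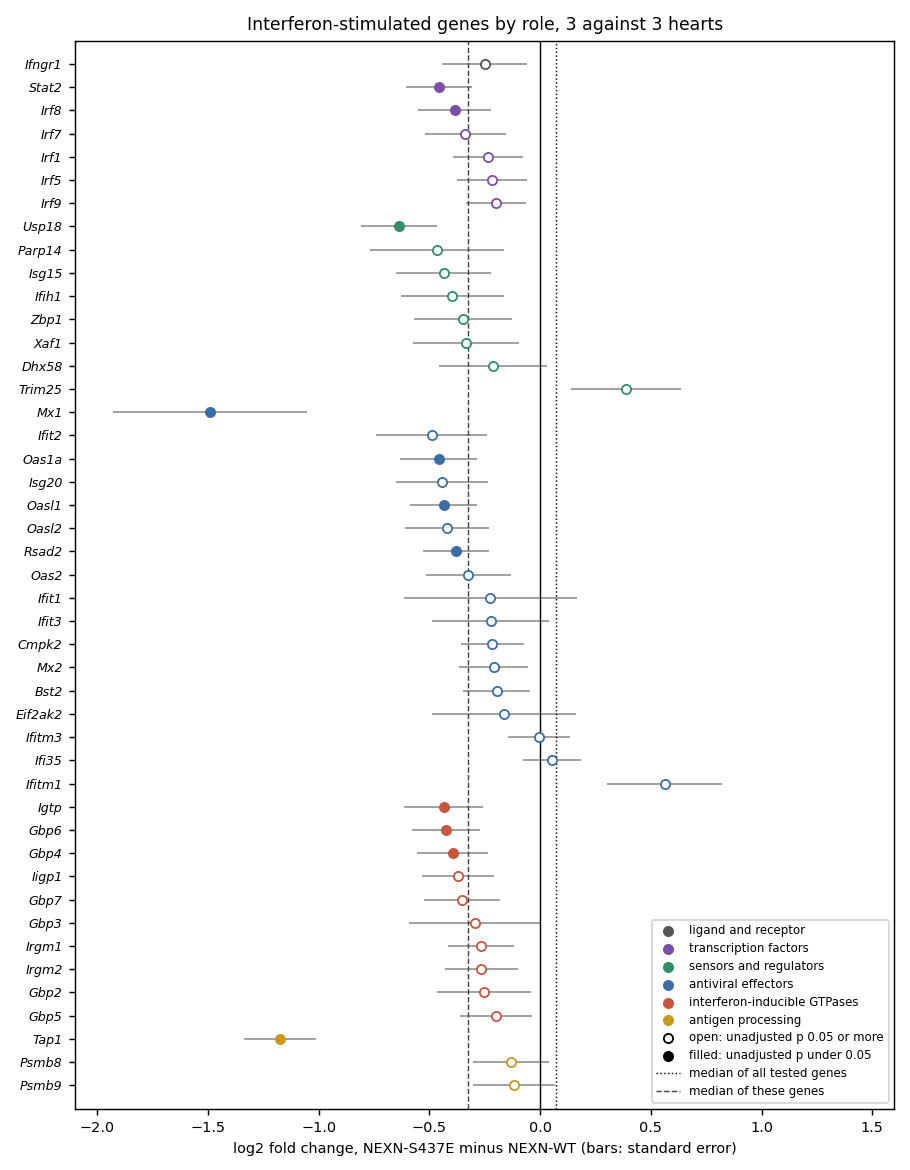
Log2 fold change (NEXN-S437E minus NEXN-WT) of the 45 tested interferon-stimulated genes, 1 probe a gene, grouped and coloured by role, with bars of 1 standard error from limma; filled points have an unadjusted p under 0.05. The points cluster near the dashed line at −0.32, left of the dotted line at 0.073 for all genes, with *Tap1* and *Mx1* (a fitted value, for which the text gives a bound) furthest left and *Ifitm1* and *Trim25* to the right of 0.

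The NEXN-WT hearts were not alike in these genes. The median over the 45 genes of a heart's deviation from each gene's mean of 6 was 0.27, −0.012 and 0.20 in NEXN-WT replicates 1, 2 and 3 and −0.17, −0.12 and −0.13 in the NEXN-S437E hearts, whereas over all genes these medians were between −0.11 and 0.070. Replicate 1 of NEXN-WT held the highest of the 6 values for 24 of the 45 genes. Replicate 2 lay within the range of the NEXN-S437E hearts for 20 of them, replicate 3 for 10 and replicate 1 for 4. Without NEXN-WT replicate 1 the median of the 45 fold changes was −0.26 and 38 were below 0, and without replicate 2 the median was −0.44 and 42 were below 0.

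**Figure D2:**
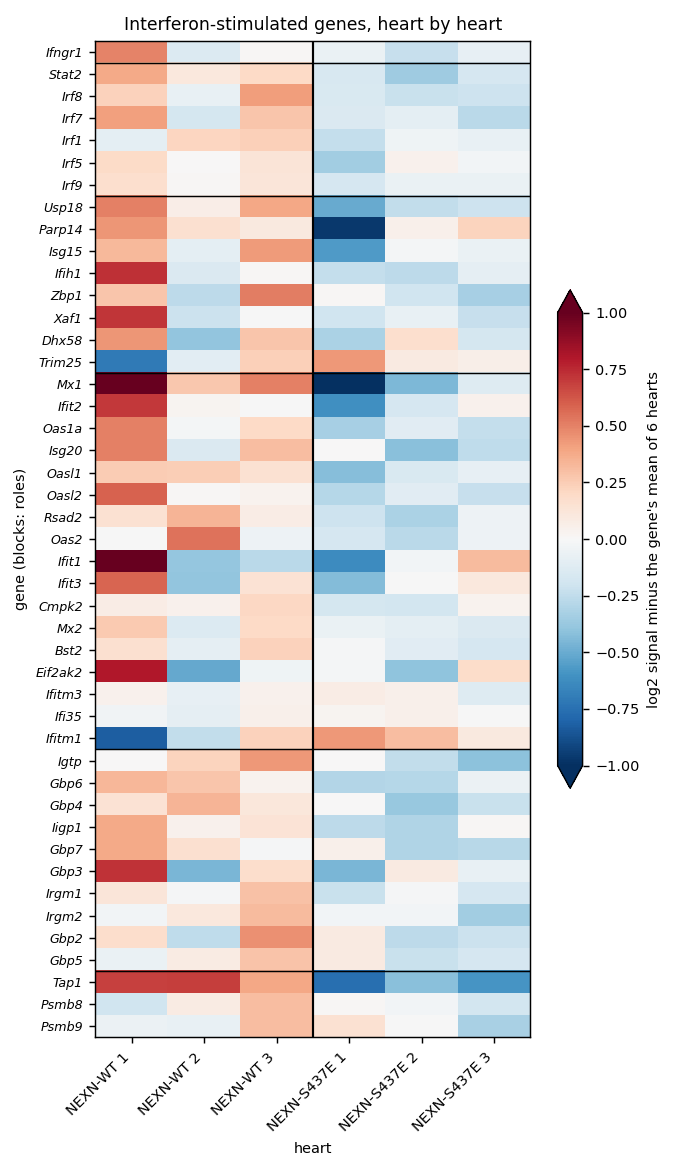
Log2 signal of each of the 45 genes in each heart minus the gene's mean over the 6 hearts, with colour limits at −1 and 1 and horizontal lines between roles. NEXN-WT replicates 1 and 3 are mostly red, the 3 NEXN-S437E hearts mostly pale blue, and NEXN-WT replicate 2 is mixed, while *Ifitm1* and *Trim25* run the other way in replicate 1.

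The ligand itself was at the edge of detection. *Ifng*, which encodes interferon gamma, was well above background in 2 of 3 NEXN-WT hearts and in none of the NEXN-S437E hearts. The values were −3.91, −3.00 and −3.12 with NEXN-WT and −4.53, −4.18 and −4.08 with NEXN-S437E, and it was not tested. *Ifngr1*, the ligand-binding chain of its receptor, read 5.52, 4.88 and 5.03 with NEXN-WT and 4.95, 4.79 and 4.93 with NEXN-S437E. The groups overlapped, and only NEXN-WT replicate 1 was clearly above the rest. The log2 fold change, given from here on with its standard error (SE), was −0.25 (SE 0.19, limma adjusted p = 0.503), and −0.064 without that heart.

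All 6 transcription factors had values below 0, from −0.20 to −0.46, and 2 of them, *Stat2* and *Irf8*, had an unadjusted p under 0.05. *Stat2*, a transcription factor of the type I response, read 2.86, 2.58 and 2.68 with NEXN-WT and 2.32, 2.12 and 2.31 with NEXN-S437E. All 3 NEXN-S437E hearts lay at least 0.26 below the lowest control. The log2 fold change was −0.46 (SE 0.15, limma adjusted p = 0.209). *Irf8*, a factor of macrophages and dendritic cells, read 1.32, 1.02 and 1.51 with NEXN-WT and 0.94, 0.87 and 0.88 with NEXN-S437E. Its controls spread widely (SD 0.25) while the NEXN-S437E hearts lay close together (SD 0.037). Its log2 fold change was −0.39 (SE 0.16, limma adjusted p = 0.282).

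*Irf7*, the factor that amplifies type I interferon production, had 2 tested probes. The probe A_55_P2744251 read 5.41, 4.83 and 5.28 with NEXN-WT and 4.86, 4.90 and 4.74 with NEXN-S437E. The groups overlapped through NEXN-WT replicate 2, and the log2 fold change was −0.34 (SE 0.18, limma adjusted p = 0.366). The other probe, A_51_P421876, gave −0.40 without overlap. *Irf9*, which completes the type I complex, gave −0.20, *Irf1*, the first factor induced by interferon gamma, −0.24, and *Irf5* −0.22, and none of these 3 reached an unadjusted p under 0.05.

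Among the 8 sensors and regulators, 7 were below 0 and 1, *Usp18*, had an unadjusted p under 0.05. *Usp18* removes the ubiquitin-like protein ISG15 from its targets and restrains the type I receptor. It read 0.47, 0.028 and 0.35 with NEXN-WT and −0.54, −0.28 and −0.25 with NEXN-S437E, with every NEXN-S437E heart below every control. The log2 fold change was −0.64 (SE 0.17, limma unadjusted p = 0.00612 and adjusted p = 0.161), and the unadjusted p stayed under 0.05 in all 19 alternative fits. *Isg15* itself gave −0.44 with overlap between the groups.

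The viral RNA sensors *Ifih1* (−0.40) and *Dhx58* (−0.21), the nucleic acid sensor *Zbp1* (−0.35), the ADP-ribosyltransferase gene *Parp14* (−0.46) and the apoptosis regulator *Xaf1* (−0.33) overlapped between groups. A second, dimmer *Zbp1* probe, A_66_P139683, which 2 of the 3 NEXN-S437E arrays read above background, gave −0.89 with no overlap. *Trim25*, a ubiquitin ligase that activates RNA sensing, was above 0 on 2 of its 3 tested probes. The probe of highest signal, A_55_P2098076, read 5.45, 6.05 and 6.39 with NEXN-WT and 6.59, 6.25 and 6.22 with NEXN-S437E, with NEXN-WT replicate 1 the lowest. On that probe the log2 fold change was 0.39 (SE 0.25, limma adjusted p = 0.434), which became 0.13 when NEXN-WT replicate 1 was left out and 0.60 when replicate 3 of that group was, and the other probes gave −0.074 and 0.097.

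The antiviral effectors had a median log2 fold change of −0.23 over 17 tested genes. Beside *Mx1*, for which there is only a bound, they ranged from −0.49 to 0.56. Among the 17, 4 genes, *Mx1*, *Oas1a*, *Oasl1* and *Rsad2*, had an unadjusted p under 0.05, and 6 showed no overlap between groups. *Mx1* read −1.73, −2.93 and −2.69 with NEXN-WT and −4.85, −3.64 and −3.33 with NEXN-S437E on the probe A_55_P2118441 (chromosome 16, 97668644 to 97668703 on mm9). It was well above background on all 3 NEXN-WT arrays and on no NEXN-S437E array, so only a bound can be given. In the NEXN-S437E hearts *Mx1* was lower by at least 1.77-fold, the lowest signal above background of each array standing in for the dim group. The limma adjusted p of 0.185 belongs to the fitted difference, which rests on readings not above background, and not to this bound. Its second probe was not above background on any array, and with normexp background correction the log2 difference of the first was −0.14.

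The oligoadenylate synthetases, which sense double-stranded RNA, had log2 fold changes between −0.32 and −0.46. *Oas1a* read 3.03, 2.51 and 2.73 with NEXN-WT and 2.19, 2.41 and 2.29 with NEXN-S437E, 0.10 apart at the nearest. This gave a log2 fold change of −0.46 (SE 0.17, limma adjusted p = 0.248). *Oasl1*, a relative that represses translation of *Irf7*, read 1.14, 1.13 and 1.04 with NEXN-WT and 0.46, 0.73 and 0.80 with NEXN-S437E. The controls had an SD of 0.057, and the log2 fold change was −0.44 (SE 0.15, limma adjusted p = 0.223). *Oasl2* gave −0.42 without overlap, *Oas2* gave −0.32 with overlap, and *Oas3* was read above background on no array.

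*Rsad2*, which encodes viperin, read 1.77, 1.96 and 1.70 with NEXN-WT and 1.42, 1.31 and 1.57 with NEXN-S437E. The groups were 0.12 apart, with a log2 fold change of −0.38 (SE 0.15, limma adjusted p = 0.26), while its second probe gave −0.29 with overlap. *Cmpk2*, its neighbour in the genome, gave −0.22. The translation inhibitors *Ifit1* (−0.23), *Ifit2* (−0.49) and *Ifit3* (−0.22) overlapped between groups, and NEXN-WT replicate 1 was the highest of 6 in each. The same heart was the highest for *Eif2ak2*, the kinase PKR (−0.16).

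The membrane-bound restriction factors of the *Ifitm* family had values near or above 0. *Ifitm3*, which blocks entry of viruses through endosomes, read 5.33, 5.21 and 5.33 with NEXN-WT and 5.36, 5.34 and 5.16 with NEXN-S437E. The log2 fold change was −0.0061 (SE 0.14, limma adjusted p = 0.985), with a direction that turned with the setting. With the authors' normalized values the log2 fold change of *Ifitm3* was −0.20. *Ifitm1* read −0.82, −0.24 and 0.23 with NEXN-WT and 0.44, 0.31 and 0.10 with NEXN-S437E. Its log2 fold change of 0.56 (SE 0.26, limma adjusted p = 0.311) was the highest of the 45, and its groups overlapped. NEXN-WT replicate 1 was the lowest heart for *Ifitm1*, and the fold change was not recomputed without that heart. *Bst2*, or tetherin, gave −0.20, the nuclease gene *Isg20* −0.44, *Mx2* −0.21 and *Ifi35* 0.053, which was −0.085 with the authors' values. *Ifi44* was read above background in 2 NEXN-WT hearts and 1 NEXN-S437E heart and was not tested.

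The interferon-inducible GTPases lay in a narrow range. All 10, the guanylate-binding proteins *Gbp2* to *Gbp7* and the immunity-related GTPases *Igtp*, *Irgm1*, *Irgm2* and *Iigp1*, were below 0, with a median of −0.32 and a range from −0.20 to −0.44. Of the 10, 3 had an unadjusted p under 0.05 and 5 showed no overlap. Cross-hybridisation between members of this family was not tested.

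*Gbp6* read 0.15, 0.0995 and −0.15 with NEXN-WT and −0.47, −0.47 and −0.24 with NEXN-S437E, and the groups were 0.092 apart. The fitted log2 fold change was −0.43 (SE 0.15, limma adjusted p = 0.236). *Gbp4* read 1.08, 1.27 and 1.05 with NEXN-WT and 0.94, 0.56 and 0.71 with NEXN-S437E, with the highest value in NEXN-WT replicate 2. This gave −0.40 (SE 0.16, limma adjusted p = 0.266). *Igtp*, which acts on the vacuoles of intracellular pathogens, read 3.81, 4.03 and 4.24 with NEXN-WT and 3.81, 3.56 and 3.40 with NEXN-S437E. NEXN-WT replicate 1 and NEXN-S437E replicate 1 were equal within 0.0013, and the log2 fold change was −0.44 (SE 0.18, limma adjusted p = 0.267).

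*Irgm2*, whose printed stretch is nearly that of *Igtp*, gave −0.27. *Iigp1* gave −0.37 without overlap, and *Gbp2* (−0.25), *Gbp3* (−0.30), *Gbp5* (−0.20), *Gbp7* (−0.35) and *Irgm1* (−0.27) overlapped between groups. A second *Gbp5* probe gave 0.058. One of the other *Irgm1* probes, A_55_P1981479, gave −0.49 without overlap.

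*Tap1* had the smallest p of the 45 genes. The probe A_66_P125929 (chromosome 17, 34334022 to 34334081 on mm9) read −0.87, −0.85 and −1.16 with NEXN-WT and −2.30, −1.96 and −2.14 with NEXN-S437E. The means were −0.96 ± 0.17 (SD, n = 3) and −2.13 ± 0.17 (SD, n = 3), and the nearest hearts of the groups were 0.81 apart. The log2 fold change was −1.17, or 2.26-fold lower (SE 0.16, limma unadjusted p = 9.07e-05 and adjusted p = 0.0534).

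The size depended on the probe and on the background correction. With normexp the log2 fold change of A_66_P125929 was −0.50 (limma unadjusted p = 0.00137). A second *Tap1* probe, A_51_P100327, which lies upstream at 34330854 to 34330913, read −1.50, −1.47 and −0.75 with NEXN-WT and −1.63, −1.82 and −2.14 with NEXN-S437E. It was also lower in every NEXN-S437E heart, with a log2 fold change of −0.62 (SE 0.24, limma adjusted p = 0.255). On the mean of both probes *Tap1* was no longer past 2-fold. *Psmb8*, an immunoproteasome subunit whose gene lies beside *Tap1*, read 3.03, 3.32 and 3.54 with NEXN-WT and 3.24, 3.20 and 3.05 with NEXN-S437E. Its groups overlapped, with a log2 fold change of −0.13 (SE 0.17, limma adjusted p = 0.697), and its partner *Psmb9* gave −0.12, also with overlap.

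**Figure D3:**
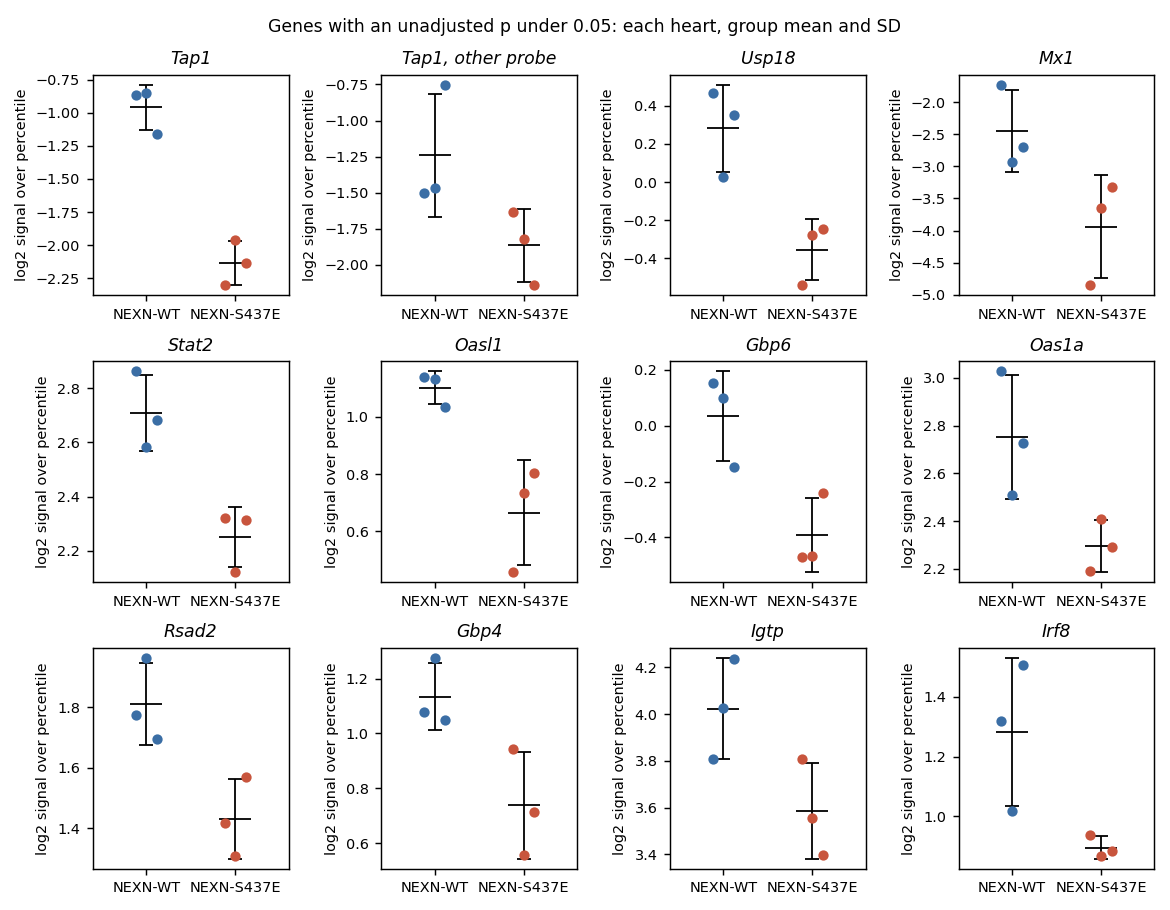
Log2 signal relative to the array's 75th percentile in each heart (points), with group mean and SD (bars), for the 11 genes with an unadjusted p under 0.05 and the second *Tap1* probe; the vertical scale differs between panels. The groups separate in each panel, by 0.81 in *Tap1* and by 0.0013 in *Igtp*.

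Median differences were close between genes with and without each promoter motif. Of the genes with a window, 17 tested genes held the ISRE core and had a median log2 fold change of −0.27, of which 4 (*Stat2*, *Oas1a*, *Rsad2* and *Igtp*) had an unadjusted p under 0.05. The 18 tested genes without the core had a median of −0.24, of which 3 (*Irf8*, *Oasl1* and *Tap1*) had such a p. For GAS the medians were −0.25 with the motif (14 genes) and −0.27 without it (21 genes). No window was given for *Usp18*, *Mx1*, *Gbp4* or *Gbp6*.

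Other genes of the interferon pathway, 61 on the array, are given beside them. Of the 52 tested, 2 were past 2-fold with an unadjusted p under 0.05, and both were chemokines that draw T cells and NK cells. *Cxcl10* read −0.071, 0.078 and 1.14 with NEXN-WT and −1.95, −2.00 and −1.40 with NEXN-S437E, a log2 fold change of −2.17 (SE 0.33, limma adjusted p = 0.0679). *Ccl5* read 1.71, 2.78 and 2.58 with NEXN-WT and −0.15, −0.50 and −0.46 with NEXN-S437E, a log2 fold change of −2.73 that passed the adjusted threshold (SE 0.28, limma adjusted p = 0.014). In the same list of 7 chemokines and ligands *Il15*, a growth factor of NK cells and memory T cells, which is named after its values were seen, was higher in every NEXN-S437E heart (0.98, SE 0.23, limma unadjusted p = 0.00279 and adjusted p = 0.135), and a second probe gave 0.89. *Cxcl11* gave 0.30 with overlap, and its second probe 0.31 without overlap. The interferon gamma target *Cxcl9* gave −0.44 with overlap between the groups (limma adjusted p = 0.463), and *Cd274*, the checkpoint ligand PD-L1, −0.061 (limma adjusted p = 0.887).

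The MHC class II genes, which interferon gamma induces through CIITA, had a median log2 fold change of −0.52, and 6 of the 7 (all but *H2-DMa*) had an unadjusted p under 0.05. The 6 became 2 with slide row as a block and 2 without NEXN-S437E replicate 3. The 10 tested genes of the MHC class I pathway had a median of −0.13, and none had such a p (limma). None of the 8 type I and type III interferon genes on the array was tested: 1, *Ifnl3*, was above background on 1 NEXN-WT array and the others on none. Of the 9 receptor and kinase genes, each on its probe of highest mean, only *Ifngr2* had an unadjusted p under 0.05. *Ifngr2*, the signalling chain of the interferon gamma receptor, was higher (0.43, SE 0.18, limma adjusted p = 0.277). Dimmer probes of *Ifnar1* (A_51_P168545) and *Ifnar2* (A_51_P338924) gave −0.34 and −0.37 without overlap, the second with a limma unadjusted p of 0.0473. The brightest probes of these 2 genes gave 0.074 and 0.12 with overlap. Of the 13 tested genes of nucleic acid sensing 2 were lower with an unadjusted p under 0.05, and of the 6 negative regulators 1. A dimmer probe of the negative regulator *Ptpn6*, A_52_P666779, was higher in every NEXN-S437E heart (0.997, SE 0.17, limma unadjusted p = 0.000335 and adjusted p = 0.0821). The other tested *Ptpn6* probes gave −0.096 and −0.22 with overlap.

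Markers of other cell types differed between the groups as well. In bulk tissue, fewer cells of a type and less RNA per cell cannot be told apart. Of 6 tested T cell markers 5 were lower with an unadjusted p under 0.05, and the summed relative signal of the list was 2.89 to 4.65 with NEXN-WT and 1.45 to 1.74 with NEXN-S437E. *Cd3g*, a chain of the T cell receptor complex, was well above background on all NEXN-WT arrays and on no NEXN-S437E array, lower by at least 2.19-fold. Its limma adjusted p of 0.00112 belongs to the fitted difference and not to this bound. *Cd8b1*, above background on 2 NEXN-S437E arrays, also passed the filter through the NEXN-WT arrays alone. *Cd4* gave 0.22 with overlap. All 5 tested NK and cytotoxic cell markers were lower with such a p, with sums of 1.63 to 4.79 and 0.71 to 0.887. Of the 5, *Klrd1* and *Tbx21* were above background on no NEXN-S437E array and *Gzmb* on 1. These passed the filter through the NEXN-WT arrays alone, and the NEXN-S437E sums include their readings not above background. *Ncr1*, *Prf1* and *Klrb1c* were not above background on any array.

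The macrophage list summed to 112 to 132 with NEXN-WT and 120 to 130 with NEXN-S437E, and of its 8 genes only the interferon-inducible Fc receptor gene *Fcgr1* had an unadjusted p under 0.05 (−0.74, limma adjusted p = 0.168). The endothelial list had no gene with such a p, 4 of 6 fibroblast markers were lower and 4 of 8 cardiomyocyte markers higher. The cardiomyocyte sum was 1727 to 2493 with NEXN-WT and 2945 to 3007 with NEXN-S437E, and the fibroblast sum 507 to 713 and 405 to 435. The size of the cardiomyocyte differences depended on the scaling. The 4 higher markers, *Myh6*, *Tnni3*, *Tnnt2* and *Mb*, gave 0.58, 0.60, 0.43 and 0.46 here. With the authors' normalized values they gave 0.20, 0.20, 0.17 and 0.043. B and plasma cell, dendritic cell, neutrophil and erythrocyte lists had 2, 2, 0 and 0 genes with an unadjusted p under 0.05, of 3, 4, 3 and 3 tested. All of those 4 genes were lower. Among them *Jchain*, *Cd209a* and *Itgax* were above background on no NEXN-S437E array and passed the filter through the NEXN-WT arrays alone.

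Within the NEXN-WT hearts the lists differed in order. Replicate 1, in which 24 of the 45 genes were highest, had the lowest sum of T cell markers (2.89, against 3.94 and 4.65) and of NK and cytotoxic markers (1.63, against 3.34 and 4.79). It also had the lowest cardiomyocyte sum (1727). The sums of fibroblast markers (713, 507 and 568 in replicates 1, 2 and 3), of B and plasma cell markers (1.13, 0.911 and 1.02), of macrophage markers (132, 112 and 131) and of MHC class II genes (205, 146 and 170) were highest in replicate 1 and lowest in replicate 2, as was the median deviation of the interferon-stimulated genes. The summed relative signal of the 45 genes was 392, 358 and 424, with replicate 3 highest. It was 376, 352 and 342 in the NEXN-S437E hearts, so the groups overlapped on this sum. *Trim25*, the brightest of the 45, weighs heavily in it and rose from 5.45 in NEXN-WT replicate 1 to 6.39 in replicate 3. What part these cell types had in the differences of the interferon-stimulated genes was not tested.

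**Figure D4:**
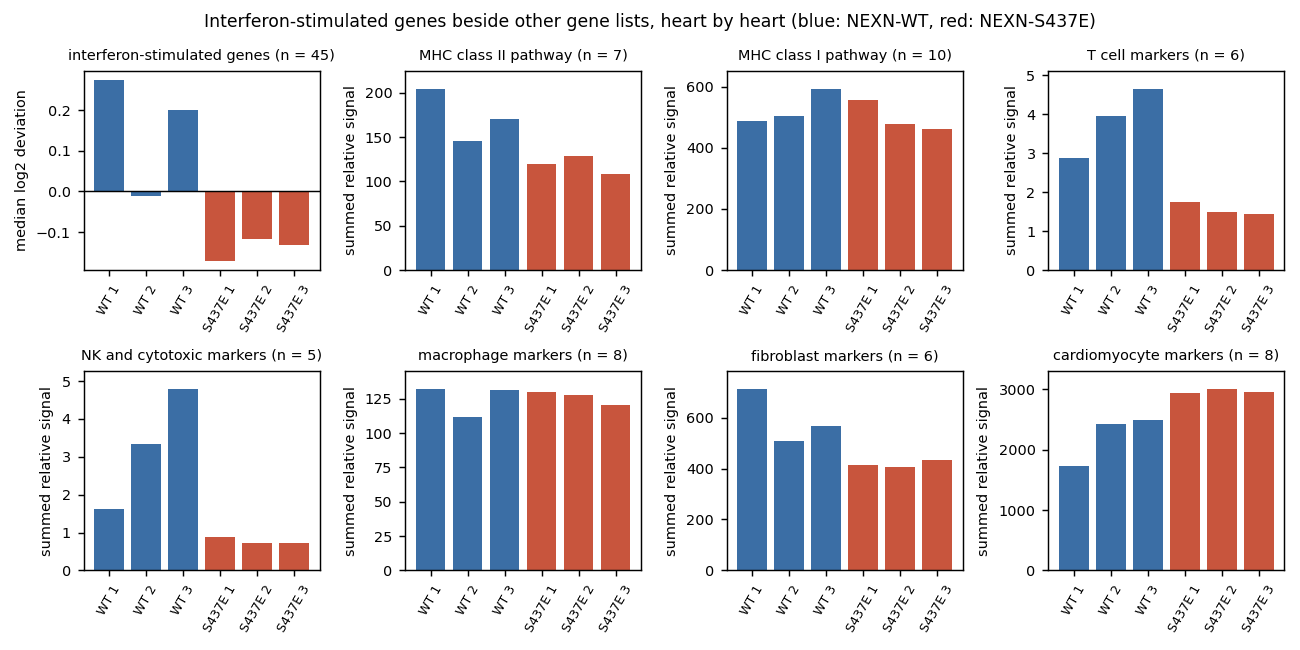
The first panel shows, for each heart, the median log2 deviation of the 45 interferon-stimulated genes from their means of 6 hearts, and the other panels the summed relative signal (signal over the array's 75th percentile) of the tested genes of a list, from 0. T cell and NK markers separate the groups with the lowest NEXN-WT bar in replicate 1, MHC class II sums are 146 to 205 against 109 to 129, and macrophage sums overlap.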

How the data were processed

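Gene expression was measured on Agilent 8x60K mouse arrays (design 074809), with 1 dye and 1 array per heart. The authors extracted the arrays with Feature Extraction 10.7.1.1, named in their processing notes, and deposited for each array intensities on a linear scale, background-subtracted and not normalized between arrays, with detection flags. A table of the series holds deposited log2 normalized values with identical distributions in all 6 columns, and its software is not given in the sources used here. Probe positions are on mm9, per the file headers, and were not placed in exons.

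From the processed signals, control and outlier spots were dropped, log2 was taken, each array's 75th percentile was subtracted and spots of a probe were averaged. R 4.3.3 with limma 3.58.1 (lmFit, then eBayes) compared 3 with 3 arrays over all tested probes, with Benjamini-Hochberg adjustment. A gene was represented by its tested probe of highest mean. Calls were an adjusted p under 0.05, or, after the study's criteria, 2-fold and an unadjusted p under 0.05. Backgrounds are shares of all named genes tested. The fit was tested on simulated data. Precision is limited by 3 arrays a group.

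Given in every heart were genes past a threshold and, in each role, the genes with the largest fold change and the highest signal. The genes and lists were chosen with earlier results of these data known. Figures were drawn with Python 3.11.15 and matplotlib 3.10.9. Alternatives were other scalings, filters, probe rules, blocks, weights, the methods' t-test and leaving out each array. The values of 1 gene of the pathway lists were left out of the text and are not reported here.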

Additional observations from a re-analysis of the deposited data

How the results depend on the processing

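No gene passed the adjusted threshold except 1 with an intensity trend (*Tap1*) and 3 with array weights (*Gbp4*, *Igtp* and *Tap1*), and none did by the methods' t-test, which gave 9 genes with an unadjusted p under 0.05. The 2 genes past 2-fold by fitted values became 3 without a filter on dim probes (with *Oas3*, above background on no array), 3 with slide row as a block (with *Parp14*), 0 with normexp background correction and 1 each with a filter on all 6 arrays, array weights, the methods' t-test and the mean of all probes of a gene, and lay between 1 and 2 when each array was left out, with 1 without NEXN-WT replicate 1 or replicate 2, where the other *Tap1* probe had the higher mean. The 11 genes with an unadjusted p under 0.05 became 17 with quantile normalization and with the authors' normalized values, 21 with the percentile over detected probes, 24 with normexp, 7 without a filter on dim probes, 7 with slide row as a block and 5 with the replicate number as a block, and lay between 5 (without NEXN-S437E replicate 2) and 12 when each array was left out. All of these were lower except 2 of the 12 without NEXN-WT replicate 3, *Trim25* (0.60) among them. The median log2 fold change, −0.32, was −0.44 with the percentile over detected probes, −0.19 with array weights and −0.26 to −0.44 when each array was left out. The percentile over detected probes moved the median of all genes from 0.073 to −0.038, and with no filter that median was 0.24. The share of all genes lower with an unadjusted p under 0.05 ranged from 3.59% to 11.8% over the settings. The slide row fit sets NEXN-S437E replicate 1 alone against the NEXN-WT arrays within row 1.

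The 2 pathway genes past 2-fold, *Ccl5* and *Cxcl10*, became 4 with slide row as a block (with *H2-DMb1* and *Socs1*) and lay between 2 and 4 when each array was left out, with 4 without NEXN-WT replicate 3 or NEXN-S437E replicate 3 (with *Socs1*, which was lower, and *Il15*, which was higher). The alternatives for this count were added after the data were seen. The fold change of *Ifitm3* was −0.20 with the authors' normalized values, turned to 0.071 with slide row as a block and lay between −0.048 and 0.058 when each array was left out. The other 15 genes that the naming rule gives in every heart kept their direction in every setting run, while *Ifng*, *Ifitm1*, *Ccl5* and *Cxcl10* were not recomputed singly. The replicate numbers are not stated to pair hearts. Deviations of same-numbered hearts correlated at −0.15, −0.028 and −0.18, and with the block 5 genes had an unadjusted p under 0.05, 4 of them among the 11, and 2 were past 2-fold. The causes were not tested.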
